A study of Mus musculus with 24 samples.

Results

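The genes examined here are the protein-coding neighbours of Grn on mouse chromosome 11. They start between 97430000 and 107430000 in the GRCm38 build (GENCODE M21 annotation), which is within 5 Mb of the start of Grn at 102430315. A gene was kept when its summed estimated reads were at least 10 in at least 6 libraries. Grn itself, Mapt, Gfap, Cnp, Nsf, Atp6v0a1, Naglu and the ribosomal protein genes were left out by name. This gave 193 genes, of 15352 protein-coding genes that met the same count rule in the whole data set and of 1252 on chromosome 11. The annotation holds 298 protein-coding genes in the interval. Of those in the files, 94 fell short of the count rule, 45 of them with keratin symbols, and 10 were left out by name. Of the 193 genes, 122 start below Grn and 71 above it, and 52 start within 1 Mb.

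Grn encodes progranulin, a secreted and lysosomal glycoprotein whose deficiency causes a familial form of frontotemporal dementia in humans. Genes that lie close together on a chromosome are inherited together. A mouse that receives a targeted allele therefore usually also receives the stretch of chromosome around it, and the length of that stretch varies with the breeding history. The sources used here do not give the strain in which the Grn allele was made, the design of the allele or the promoter that drives the human transgene. Sequence variants were not analysed here.

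Frontal cortex of 24 mice was measured by bulk RNA sequencing of polyadenylated RNA. The mice came from a cross of Grn+/- mice with mice that carry a human TDP-43 transgene (hTDP), and each of the 4 genotypes had 6 mice, 3 female and 3 male. Mice of the genotype Grn+/-:hTDP+ were 9.44 to 10.07 months old, Grn+/-:hTDP- mice were 8.19 to 10.79 months old, Grn+/+:hTDP+ mice were 9.44 to 10.07 months old and Grn+/+:hTDP- mice were 9.44 to 10.79 months old. Each library is 1 mouse.

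Libraries held 61445842 to 100859149 estimated reads, of which the 193 genes took 1.161% to 1.219%. Human TARDBP, the gene of TDP-43, had 4328 to 8162 reads in hTDP+ libraries and 0 to 2 reads in hTDP- libraries. Grn, the check of the genotype labels, averaged 26.3 ± 5.53 reads scaled to the library total (CPM) in Grn+/- mice and 49.4 ± 7.55 CPM in Grn+/+ mice (SD, n = 12 each). The highest Grn+/- library had 32.9 CPM and the lowest Grn+/+ library 34.7 CPM. The Grn+/+:hTDP+ library of replicate 2 stood apart, since only 40188 of its transcripts were above 0, whereas every other library had 65994 to 69846. It listed 12 of the 193 genes at 0, and no other library listed more than 2 at 0. Values without it are given below for Fam171a2, G6pc3, Meox1, Stat5a and the comparison of changes with and without hTDP, but not for every result. In bulk tissue, fewer cells of a type and less RNA per cell cannot be told apart.

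Most of these genes are active in the cortex. Over all 24 libraries their levels per length, in TPM (transcript abundance scaled to the library total), had a median of 18.4 TPM, with 120 genes above 10 TPM and 29 below 1 TPM. The highest level was that of Thra, the thyroid hormone receptor alpha, at 801 TPM. Next came Eif1, a factor that selects the start codon in translation, at 631 TPM, and Ddx5, an RNA helicase, at 431 TPM. Rundc3a, a neuronal protein with a RUN domain whose gene lies next but one below Grn, reached 419 TPM, and Psmc5, an ATPase subunit of the proteasome, 275 TPM. None of these 5 genes passed edgeR's test in any comparison. At this depth the median standard error (SE) of a log2 change was 0.0372 for the 122 genes above 10 CPM in the average over both transgene states.

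The comparison of Grn+/- with Grn+/+ mice, averaged over mice with and without hTDP, asks how levels around the locus differed between the Grn genotypes. The part of lower Grn and that of chromosome sequence inherited with the allele were not tested. Rnd2, which guides the migration of cortical neurons, was higher in Grn+/- mice by 0.20 on the log2 scale. It was the 1 gene of the 191 tested that passed at an adjusted p under 0.05. Over all 18239 genes tested, 4 passed, or 0.0219%, and all 4 lie in the interval. They are Mapt, Grn, Rnd2 and C130046K22Rik, a gene without protein-coding annotation 1.27 Mb above Grn. The call of Rnd2 was lost when age entered the model as cohorts, 1 term per exact age (log2 change 0.24, edgeR adjusted p = 0.0649), a setting chosen after seeing the data, in which no member was called. DESeq2 called 4 of the 189 members to which it gave an adjusted p, adding Psme3, Fam171a2 and Coa3, which were lower in Grn+/- mice. Over all genes it called 9 of 17877, or 0.0503%.

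Rnd2 (ENSMUSG00000001313.12, chromosome 11, 101464999 to 101471853, plus strand) lies 0.965 Mb below Grn. It had 66.1, 68.7 and 75.9 CPM (lowest, median and highest library) in Grn+/-:hTDP+ mice and 66.4, 69.5 and 76.9 CPM in Grn+/-:hTDP- mice. In Grn+/+:hTDP+ mice it had 59.1, 63.5 and 71.3 CPM, and in Grn+/+:hTDP- mice 55.1, 58.3 and 60.9 CPM. Of the 12 Grn+/+ libraries, 11 lay below the lowest Grn+/- library. The exception was a Grn+/+:hTDP+ library at 71.3 CPM. The means were 69.9 ± 3.52 CPM in Grn+/- mice and 61.0 ± 4.49 CPM in Grn+/+ mice (SD, n = 12 each), a log2 change of 0.20 (SE 0.0327, edgeR adjusted p = 0.0157). The difference ran the same way in each sex. In females Rnd2 averaged 70.5 CPM in Grn+/-:hTDP+ mice and 63.0 CPM in Grn+/+:hTDP+ mice, and 70.6 CPM in Grn+/-:hTDP- mice and 57.9 CPM in Grn+/+:hTDP- mice. In males it averaged 68.0 CPM in Grn+/-:hTDP+ mice and 64.6 CPM in Grn+/+:hTDP+ mice, and 70.6 CPM in Grn+/-:hTDP- mice and 58.4 CPM in Grn+/+:hTDP- mice (3 libraries each). Of the exonic bases of Rnd2, 11.4% overlap exons of Vat1 on the opposite strand, and the protocol text does not settle whether the libraries keep strand. Vat1, a vesicle amine transport protein gene, differed by a log2 change of 0.09 (SE 0.0429, unadjusted p = 0.0459), and how many reads the 2 genes share was not tested.

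The next 3 members by p had lower means in Grn+/- mice, and none of them passed in edgeR's test over all genes. Psme3 (chromosome 11, 101316213 to 101323537), which encodes the nuclear proteasome activator PA28 gamma, lies 1.114 Mb below Grn. It had 102, 105 and 109 CPM in Grn+/-:hTDP+ mice and 101, 105 and 109 CPM in Grn+/-:hTDP- mice (lowest, median and highest library). In Grn+/+:hTDP+ mice it had 104, 112 and 115 CPM, and in Grn+/+:hTDP- mice 111, 112 and 117 CPM. Here 11 of the 12 Grn+/+ libraries lay above the highest Grn+/- library. The log2 change was −0.09 (SE 0.0195, edgeR adjusted p = 0.424).

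Fam171a2 (chromosome 11, 102436981 to 102447682, minus strand) encodes a transmembrane protein and is the nearest gene to Grn, as its human counterpart is to GRN. Its last 68 bases overlap the end of Grn on the other strand, 2.2% of its exonic length. It had 147, 154 and 167 CPM in Grn+/-:hTDP+ mice and 144, 159 and 172 CPM in Grn+/-:hTDP- mice. In Grn+/+:hTDP+ mice it had 148, 177 and 182 CPM, and in Grn+/+:hTDP- mice 166, 177 and 196 CPM. The lowest Grn+/+ value, 148 CPM, is that of the Grn+/+:hTDP+ library that stands apart, and 10 of the 12 Grn+/+ libraries lay above the highest Grn+/- library. The log2 change was −0.16 (SE 0.0347, edgeR adjusted p = 0.426) with all libraries and −0.18 (SE 0.0298, edgeR adjusted p = 0.0189) without that library. Whether reads of Grn add to the count of Fam171a2 was not tested.

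Coa3 (chromosome 11, 101277968 to 101279114, minus strand) encodes an assembly factor of cytochrome c oxidase and lies 1.152 Mb below Grn. It had 48.0, 50.1 and 50.9 CPM in Grn+/-:hTDP+ mice and 46.9, 50.5 and 53.8 CPM in Grn+/-:hTDP- mice. In Grn+/+:hTDP+ mice it had 52.7, 54.0 and 57.2 CPM, and in Grn+/+:hTDP- mice 49.9, 52.9 and 54.9 CPM. The Grn genotypes did not overlap among hTDP+ mice and overlapped among hTDP- mice. The log2 change was −0.10 (SE 0.0236, edgeR adjusted p = 0.542). Of its exonic bases, 9.3% overlap Cntd1 on the opposite strand.

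The promoters of Psme3 and Coa3, the members of smallest p with an entry among the RefSeq promoter sequences (GRCm38.p6, 250 bases before the start to 50 after it) used here, are shown because both genes lie close together and had lower means in Grn+/- mice. Capitals mark matches, on either strand, to CACGTG (the E-box core), the CCAAT box, the TATA box TATAAA, the GC box GGGCGG and the cyclic AMP response element TGACGTCA, which were chosen after the values were seen. Sequences run 5′ to 3′ in the direction of the gene, for Psme3 from chr11:101315963-101316262 on the plus strand and for Coa3 from chr11:101278899-101279198 on the minus strand. The start used for the Coa3 window lies inside the gene as placed above. Most of that window, with all its marked matches, therefore falls within the gene by that annotation.
Psme3: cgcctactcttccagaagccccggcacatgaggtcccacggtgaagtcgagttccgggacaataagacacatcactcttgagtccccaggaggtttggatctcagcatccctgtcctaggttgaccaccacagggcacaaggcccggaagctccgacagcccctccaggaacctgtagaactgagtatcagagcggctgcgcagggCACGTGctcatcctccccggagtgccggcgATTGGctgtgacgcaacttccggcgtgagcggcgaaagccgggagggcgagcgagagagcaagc
Coa3: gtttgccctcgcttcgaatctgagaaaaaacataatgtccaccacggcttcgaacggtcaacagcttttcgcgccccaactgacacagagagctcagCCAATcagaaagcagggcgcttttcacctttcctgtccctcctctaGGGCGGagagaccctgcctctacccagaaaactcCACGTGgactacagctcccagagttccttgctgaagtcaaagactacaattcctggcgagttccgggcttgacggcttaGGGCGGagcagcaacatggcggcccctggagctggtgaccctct
Both hold CACGTG and CCAAT (in Psme3 as its reverse complement), and TATAAA is in neither window. Over 27025 promoters of this length, CACGTG occurs in 7.24%, and it occurs in 17 of the 132 promoters of genes in the interval that were matched, or 12.9%. CCAAT occurs in 37.9% of all promoters and in 44.7% of those matched in the interval, and GGGCGG in 35.9% of all and 62.1% of those in the interval. For TATAAA the shares were 14.2% of all and 7.58% in the interval, and for TGACGTCA 1.88% of all and 2.27% in the interval. The 132 genes met the count rule in cortex, whereas the 27025 promoters were not limited by level. These shares thus compare unlike sets and do not describe a trait of the interval.

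Meox1 (chromosome 11, 101877510 to 101894374), a homeobox gene of mesodermal development, showed the highest log2 change, 1.08, among the members with an unadjusted p under 0.05, at a very low level. It had 0.515, 0.630 and 0.805 CPM in Grn+/-:hTDP+ mice and 0.559, 0.906 and 1.16 CPM in Grn+/-:hTDP- mice. In Grn+/+:hTDP+ mice it had 0.0102, 0.374 and 0.577 CPM, and in Grn+/+:hTDP- mice 0.252, 0.349 and 0.494 CPM. Of the 12 Grn+/- libraries, 10 lay above the highest Grn+/+ library. These values rest on 34 to 81 reads per Grn+/- library and 1 to 45 reads per Grn+/+ library. The log2 change was 1.08 (SE 0.287, edgeR adjusted p = 0.926) with all libraries and 0.95 (SE 0.160, edgeR adjusted p = 0.0189) without the Grn+/+:hTDP+ library that stands apart, which held the 1 read.

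**Figure D1:**
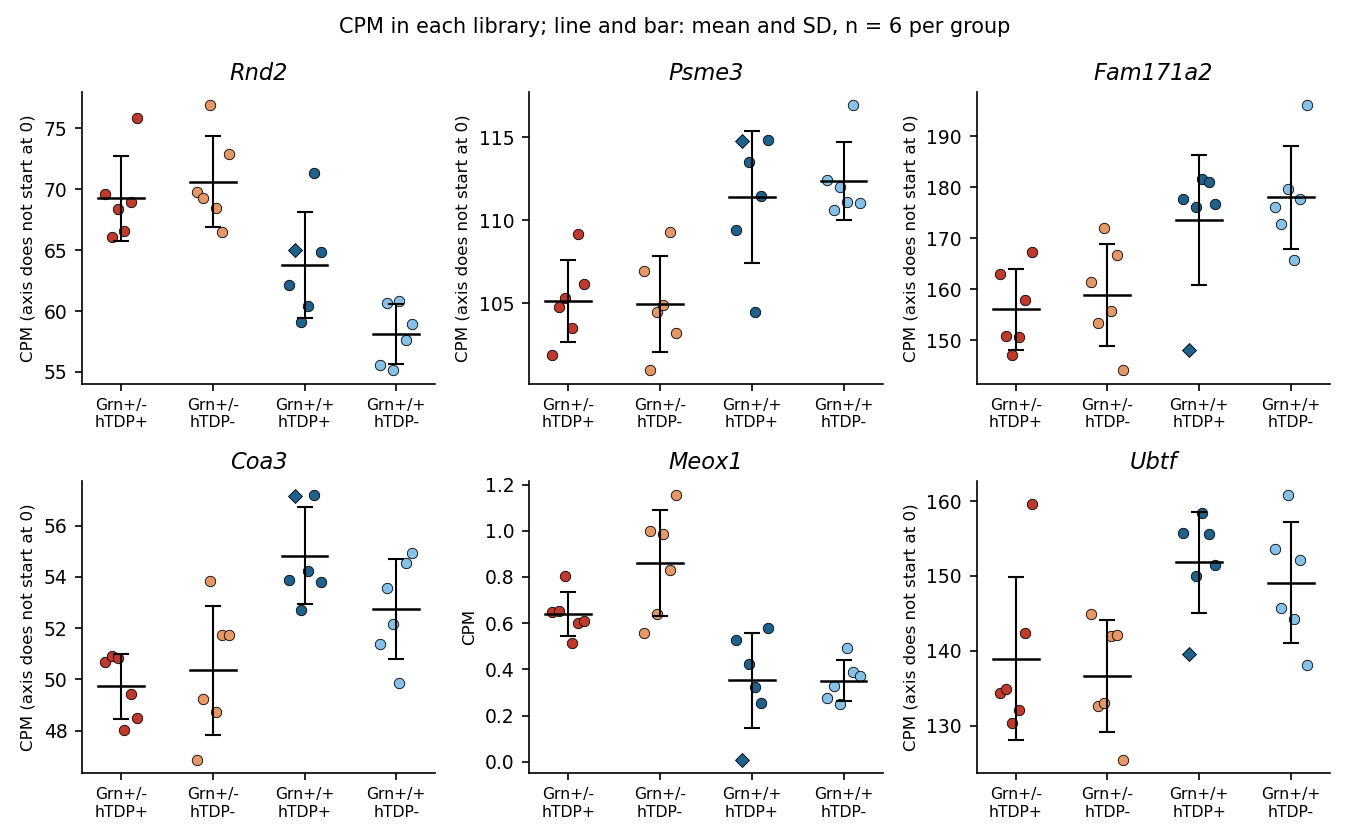
CPM of 6 genes near Grn in each of the 24 libraries, with the mean (line) and SD (bar) of 6 libraries per group; diamonds mark the Grn+/+:hTDP+ library that stands apart, and the axes of all panels but that of Meox1 do not start at 0. Rnd2 and Meox1 lie higher in both Grn+/- groups than in both Grn+/+ groups by their means, and Psme3, Fam171a2, Coa3 and Ubtf lie lower.

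The next 7 members by p follow, none of which passed in edgeR's test (adjusted p = 0.926 for each). Ubtf, which encodes the RNA polymerase I factor UBF and lies 0.126 Mb below Grn, had 130, 135 and 160 CPM in Grn+/-:hTDP+ mice and 125, 138 and 145 CPM in Grn+/-:hTDP- mice, against 140, 154 and 158 CPM in Grn+/+:hTDP+ mice and 138, 149 and 161 CPM in Grn+/+:hTDP- mice. Its log2 change was −0.13 (SE 0.0349), and 7 Grn+/- libraries lay below the lowest Grn+/+ library. G6pc3, the glucose-6-phosphatase found in most tissues, had a log2 change of −0.13 (SE 0.0406), with 39.7 ± 1.97 CPM in Grn+/- mice and 43.6 ± 3.71 CPM in Grn+/+ mice (SD, n = 12 each). The highest Grn+/+ value of G6pc3, 52.9 CPM, is that of the library that stands apart. Without that library its log2 change was −0.11 (SE 0.0346). The groups of both genes overlapped.

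Above Grn, Arf2, a GTPase of vesicle budding 1.536 Mb away, had 43.5 ± 2.09 CPM in Grn+/- mice and 46.7 ± 2.31 CPM in Grn+/+ mice (log2 change −0.10, SE 0.0294). Cyb561, which passes electrons from ascorbate into secretory vesicles and lies 3.503 Mb away, had 84.6 ± 3.36 CPM in Grn+/- mice and 90.1 ± 4.22 CPM in Grn+/+ mice (log2 change −0.09, SE 0.0268). It is the 1 gene of the 12 with the smallest p that lies over 2.5 Mb from Grn. Acbd4, an acyl-CoA binding protein that tethers peroxisomes to the endoplasmic reticulum, had 26.2 ± 1.92 CPM in Grn+/- mice and 24.01 ± 1.43 CPM in Grn+/+ mice (log2 change 0.13, SE 0.0412). On the length-corrected scale its direction turned, with 40.2 ± 4.71 TPM in Grn+/- mice and 42.7 ± 4.55 TPM in Grn+/+ mice.

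Fkbp10, a collagen chaperone 2.015 Mb below Grn, had 5.66 ± 0.643 CPM in Grn+/- mice and 4.91 ± 0.523 CPM in Grn+/+ mice (log2 change 0.21, SE 0.0673). Asb16, an ankyrin repeat protein with a SOCS box, had 4.10 ± 0.418 CPM in Grn+/- mice and 3.49 ± 0.517 CPM in Grn+/+ mice (log2 change 0.23, SE 0.0789). It lies 0.162 Mb below Grn.

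By distance from Grn, low p-values were found most often in the nearest genes. In the average over both transgene states, 24 of the 191 genes tested (12.6%) had an unadjusted p under 0.05, against 4.93% of all genes. Of these 24, 10 were higher in Grn+/- mice (2.2% of all genes were) and 14 lower (2.73% of all genes were). The log2 change was above 0 for 113 genes (59.2%, against 53.5% of all genes). No member had Grn+/- libraries that all lay on one side of all Grn+/+ libraries, as 0.011% of all genes had. The median log2 change was 0.019 in the 191 genes and 0.005 in all genes, and the median absolute log2 change 0.055 and 0.05, with the members first in each case. Genes that start within 0.5 Mb of Grn reached an unadjusted p under 0.05 in 8 of 28 cases (28.6%), and those from 0.5 to 1 Mb in 7 of 24 (29.2%). From 1 to 2.5 Mb it was 7 of 58 (12.1%) and from 2.5 to 5 Mb 2 of 81 (2.47%). Protein-coding genes further out on chromosome 11 gave 5.75% from 5 to 10 Mb, 3.65% from 10 to 20 Mb and 5.43% beyond, and those on other chromosomes 5.18%. Across the other settings tried, single libraries left out included, the 4 shares ran from 10.7% to 35.7%, from 12.5% to 29.2%, from 3.45% to 13.8% and from 2.47% to 6.17%. The lowest shares of the nearest 3 groups came from the libraries of 9.44 and 10.07 months alone, where 1.71% of all genes reached that p.

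The median absolute log2 change was 0.078 within 0.5 Mb and 0.098 from 0.5 to 1 Mb, against 0.053 from 1 to 2.5 Mb, 0.045 from 2.5 to 5 Mb and 0.044 on other chromosomes. Within 1 Mb, 11 of the 27 genes below Grn and 4 of the 25 above it had an unadjusted p under 0.05. Those below Grn, beyond the ones named above, include Tmub2, Atxn7l3 (a subunit of the histone deubiquitinase module of SAGA), Nags (the enzyme that makes the activator of the urea cycle), Mpp3 (a membrane scaffold protein), Rdm1 and Vat1. Nags had the widest SE of these, at a log2 change of 0.90 (SE 0.397), and the library that stands apart listed it at 0.

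**Figure D2:**
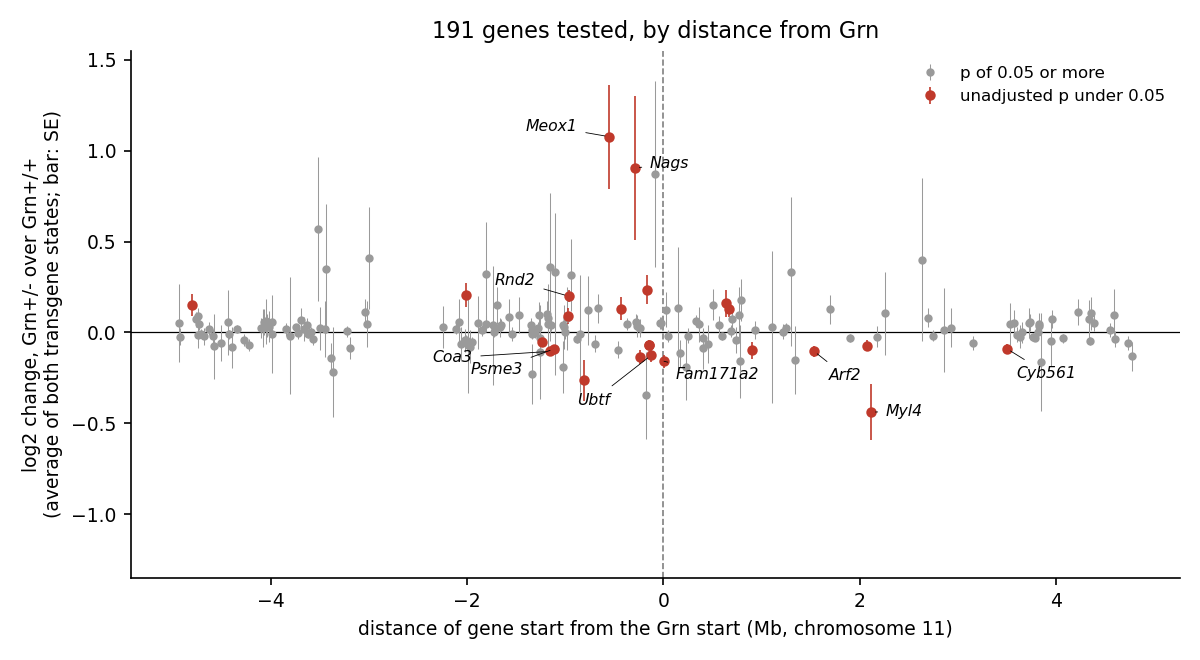
Log2 change of each of the 191 genes tested, Grn+/- over Grn+/+ averaged over both transgene states (vertical axis, bars show SE), against the distance of its start from the start of Grn in Mb (horizontal axis, dashed line at Grn). Of the 24 genes with an unadjusted p under 0.05, 15 lie within 1 Mb of Grn and 2 beyond 2.5 Mb.

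The ranks of genes show the same pattern. The first 7 of all 18239 genes by p lay in the interval, 4 of them among the 191, and 16 of the first 100 did, although the interval held 220 of the genes tested, or 1.21%. The cutoffs of 7 and 100 were chosen after the ranks were seen. For the average transgene effect, by contrast, none of the first 50 genes by p and 1 of the first 100 lay in the interval.

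**Figure D3:**
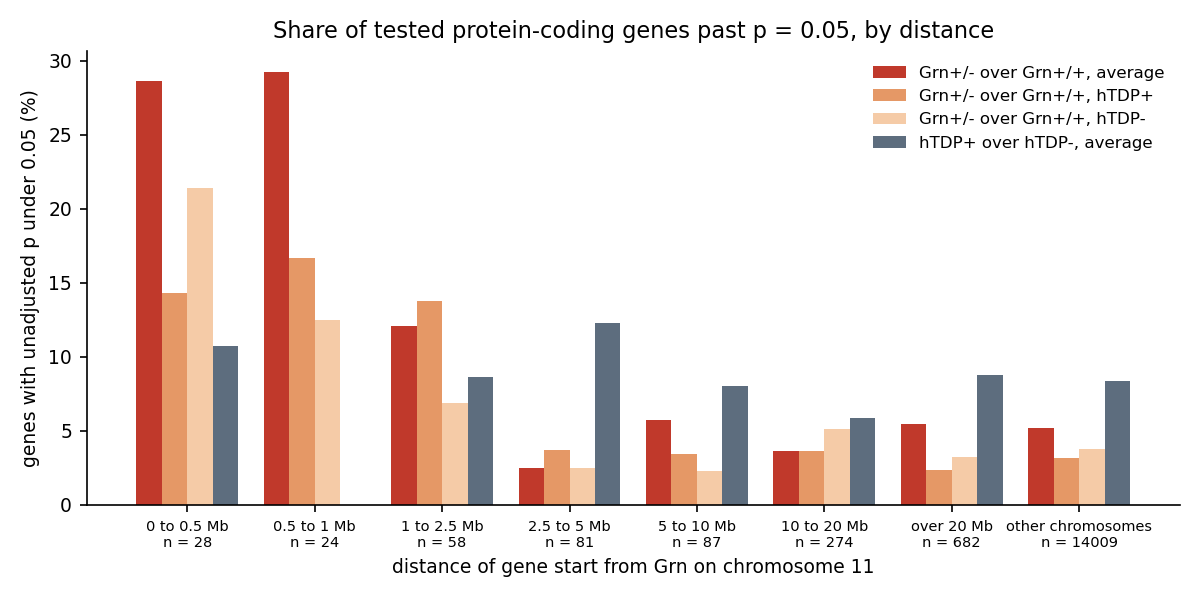
Share of tested protein-coding genes with an unadjusted p under 0.05 (vertical axis, percent) in groups by distance from Grn on chromosome 11 and on other chromosomes (horizontal axis, with the number of genes), for 4 comparisons. The average Grn comparison stands at 28.6% and 29.2% in the nearest 2 groups and at 5.18% on other chromosomes, and the average transgene comparison at 10.7%, 0% and 8.37%.

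Among the 6 nearest on each side by gene body, Ubtf, Atxn7l3 and Tmub2 below and Fam171a2 above had an unadjusted p under 0.05, all lower in Grn+/- mice. Over all genes 4.93% had such a p, and 2.73% had it with a lower level. The direction was not shared by all genes within 0.5 Mb, where 3 were higher and 5 lower at that p. Between Grn and the trio of Ubtf, Atxn7l3 and Tmub2 lie Slc25a39, which encodes a mitochondrial glutathione transporter, Rundc3a and Slc4a1. Slc25a39 had a log2 change of 0.05 (SE 0.0324, unadjusted p = 0.117), and Rundc3a of 0.05 (SE 0.0341, unadjusted p = 0.132). Above Grn, Itga2b, the platelet integrin alpha chain, had 0.13 (SE 0.0950), Gpatch8 −0.02 (SE 0.0337), Gm11627 0.13 (SE 0.336), Fzd2, a Wnt receptor, −0.12 (SE 0.0756), and Meioc, a meiosis gene, −0.19 (SE 0.179).

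Slc4a1, the anion exchanger of red blood cells 0.081 Mb below Grn, was near the floor of detection at 0 to 0.316 CPM in Grn+/- mice and 0 to 0.186 CPM in Grn+/+ mice, with a log2 change of 0.87 (SE 0.511, unadjusted p = 0.103). The mice had been perfused with saline before dissection. All 5 blood cell markers measured (the globin genes Hba-a1, Hba-a2, Hbb-bs and Hbb-bt, and Alas2) were also higher in Grn+/- mice at an unadjusted p under 0.05, with a median log2 change of 0.974 and none called. Their summed level was 76.0 to 444 TPM in Grn+/-:hTDP+, 65.0 to 859 TPM in Grn+/-:hTDP-, 105 to 296 TPM in Grn+/+:hTDP+ and 61.8 to 183 TPM in Grn+/+:hTDP- mice. Median levels were 350 TPM in Grn+/-:hTDP+ and 120 TPM in Grn+/+:hTDP+ mice, but 103 TPM in Grn+/-:hTDP- and 121 TPM in Grn+/+:hTDP- mice. Among hTDP- mice the median was thus not higher in Grn+/- mice. The part of these markers in the value of Slc4a1 was not tested. In the lists of oligodendrocyte, astrocyte, microglial, neuronal, vascular, choroid plexus and striatal markers, at most 1 gene per list reached an unadjusted p under 0.05 in this comparison, and none was called. Several lists still lay to one side. Of the oligodendrocyte markers 0 of 9 had a log2 change above 0 (median −0.106), whereas 7 of 7 astrocyte (median 0.085), 7 of 7 microglial (median 0.095) and 6 of 7 vascular markers (median 0.08) did. The medians were −0.032 for excitatory and −0.023 for inhibitory neurons, −0.068 for choroid plexus and −0.05 for striatum. Psme3, at −0.09, and Coa3, at −0.10, had changes of about the size of some of these medians, and the part of cell composition in the members' values was not tested.

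The difference between the Grn genotypes was then taken in mice with and without hTDP apart. These 2 comparisons share no library, only the estimate of spread and the sex term of the fit. Among hTDP+ mice none of the 191 genes was called by edgeR or by DESeq2. Over all genes edgeR called 1, or 0.00548%, and DESeq2 called 5 of 18230. Grn itself stayed at an edgeR adjusted p of 0.254 there. Of the 191 genes, 19 had an unadjusted p under 0.05 (9.95%, against 3.37% of all genes). Of these, 7 were higher in Grn+/- mice (1.33% of all genes were) and 12 lower (2.03% of all genes were). Coa3 led them (log2 change −0.14, SE 0.0333, edgeR adjusted p = 0.989). Coa3 was also the 1 member whose Grn+/- and Grn+/+ libraries did not overlap, as 0.104% of all genes did not.

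Among hTDP- mice Rnd2 was called by edgeR and by DESeq2, the 1 member to pass, and 0.011% of all genes were called in edgeR's test and 0.0329% in DESeq2's. Its log2 change was 0.12 (SE 0.0461, edgeR adjusted p = 0.989) with hTDP and 0.28 (SE 0.0462, edgeR adjusted p = 0.0440) without it. The difference between these changes was −0.16 (SE 0.0653, unadjusted p = 0.0203), which did not pass over all genes. The call without hTDP was lost when age was added to the model (edgeR adjusted p = 0.177), as it was with most single libraries left out. Grn+/-:hTDP- mice had ages that their Grn+/+ controls lacked, and with age as cohorts the log2 change was 0.35 (edgeR adjusted p = 0.505), again not a call. Of the 191 genes, 15 had an unadjusted p under 0.05 (7.85%, against 3.41% of all genes), 6 of them higher in Grn+/- mice (1.78% of all genes were) and 9 lower (1.63% of all genes were).

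The Grn+/- and Grn+/+ libraries of hTDP- mice did not overlap for 8 of the 191 genes, against 0.395% of all genes. Rnd2, Meox1 and Stat5a, a transcription factor of cytokine signalling, were higher in every Grn+/- library. Psme3, Cdc27 (a subunit of the anaphase-promoting complex), Ddx5, Acly (the enzyme that makes cytosolic acetyl-CoA) and Eftud2 (a GTPase of the spliceosome) were lower in every one. Stat5a had 1.25, 1.31 and 1.49 CPM in Grn+/-:hTDP- mice and 0.845, 1.08 and 1.17 CPM in Grn+/+:hTDP- mice (log2 change 0.38, SE 0.140, edgeR adjusted p = 0.9999). With hTDP its sign was the other way, at −0.21 (SE 0.139) with all libraries and −0.15 (SE 0.137) without the library that stands apart. With all libraries the difference between the changes was −0.58 (SE 0.197, unadjusted p = 0.00730), the smallest unadjusted p of the interaction among members.

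The log2 changes with and without hTDP had the same sign for 26 of 28 genes within 0.5 Mb (92.9%) and for 20 of 24 from 0.5 to 1 Mb (83.3%). It was 38 of 58 genes (65.5%) from 1 to 2.5 Mb, 50 of 81 (61.7%) from 2.5 to 5 Mb and 57.6% of 14009 genes on other chromosomes. Pearson's r across genes between the 2 sets was 0.75 within 0.5 Mb and 0.78 from 0.5 to 1 Mb, 0.10 in each of the next 2 groups and −0.05 on other chromosomes. It did not fall steadily with distance, being 0.54 from 5 to 10 Mb (87 genes), −0.14 from 10 to 20 Mb and 0.16 beyond. Spearman's rho was 0.84, 0.60, 0.13 and 0.23 from the nearest group outward, 0.11 from 5 to 10 Mb and 0.12 on other chromosomes. These are descriptions, since genes of a library share its depth and composition and neighbours are not independent. Over genes with a mean above 10 CPM, a limit chosen after seeing the data, r was 0.84, 0.79, 0.73 and 0.48 from the nearest group outward (18, 13, 36 and 55 genes) and 0.07 on other chromosomes. From 5 to 10 Mb it was −0.17 under that limit. The values from 1 to 2.5 Mb, from 2.5 to 5 Mb and from 5 to 10 Mb thus depend on whether weakly expressed genes are counted. Without the library that stands apart, the same sign was found for 24 of 28, 21 of 24, 40 of 58 and 52 of 82 genes, and r was 0.65, 0.71, 0.13 and 0.31 from the nearest group outward.

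**Figure D4:**
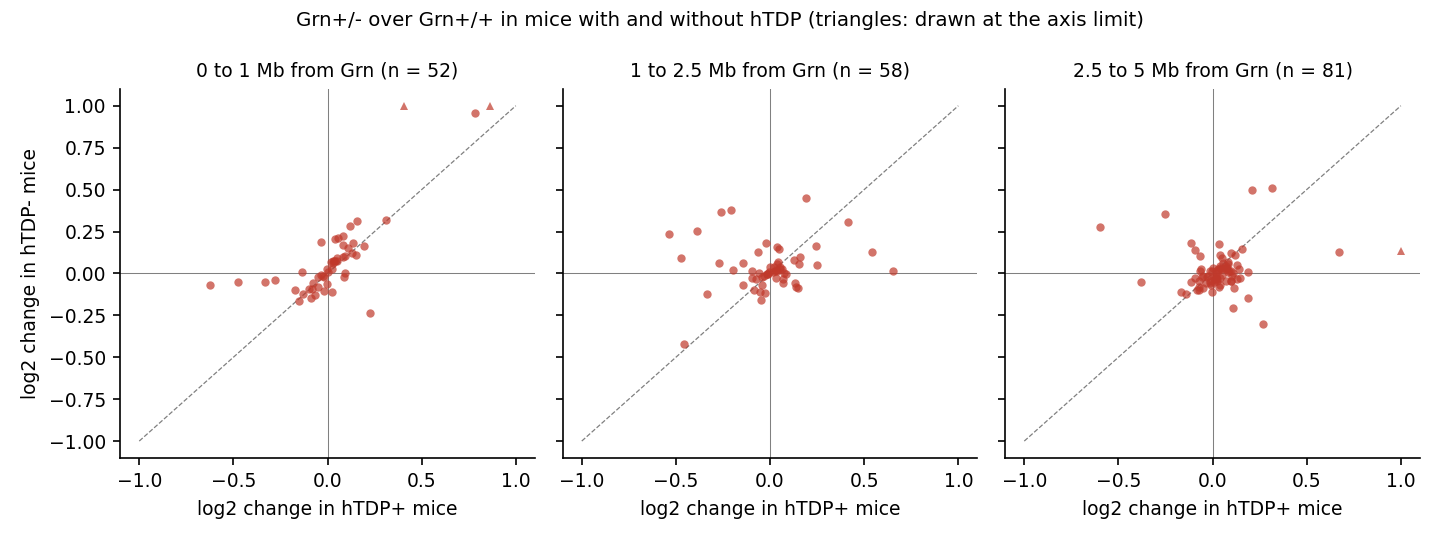
Log2 change, Grn+/- over Grn+/+, in hTDP+ mice (horizontal axis) and in hTDP- mice (vertical axis) for genes in 3 groups by distance from Grn; the dashed line marks equal changes, and triangles are points beyond the axis limit, drawn at it. Within 1 Mb, 46 of 52 points lie in the quadrants of equal sign, against 88 of 139 further out.

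The members were also taken by role, where 12.6% of the 191 genes and 4.93% of all genes had an unadjusted p under 0.05 in the average Grn comparison (2.73% of all genes with a lower level in Grn+/- mice). Of 23 genes of neuronal signalling, Rnd2 rose, and Fam171a2 and Mpp3 also had an unadjusted p under 0.05 in the average Grn comparison (median log2 change 0.047, against 0.005 over all genes). Of 27 genes of transcription and chromatin, 3 had an unadjusted p under 0.05 (Ubtf, Atxn7l3 and the histone methyltransferase gene Ezh1), all lower in Grn+/- mice, with a median of 0.006. Of 14 genes of vesicles, lysosomes and autophagy, Arf2, Cyb561 and Vat1 did, with a median of 0.016. Of 10 genes of ubiquitin and the proteasome, Psme3 and Cdc27 did, with a median of 0.003. Of 14 genes of mitochondria and metabolism, Coa3, G6pc3 and Nags did, with a median of 0.026. None of 14 genes of RNA processing and translation and none of 19 of vessels, blood and immunity did, with medians of −0.014 and 0.013. No gene of these lists other than Rnd2 was called by edgeR.

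Across the 24 libraries the level of Psme3 was the most like that of Grn, with a Pearson's r of 0.651 between log2 CPM values, followed by Ubtf (0.614), Arf2 (0.565), G6pc3 (0.565) and Fam171a2 (0.514). The lowest values were those of Rnd2 (−0.748), Meox1 (−0.591) and Plcd3 (−0.569). The mean of Grn differs between the genotypes, so a genotype difference in the other gene enters these values. After subtraction of the group means r was −0.481 for Plcd3, −0.277 for Rnd2 and −0.217 for Meox1. It was −0.038 for Psme3, 0.199 for Ubtf, 0.076 for Arf2, 0.221 for G6pc3 and −0.188 for Fam171a2.

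At the level of transcripts, none of 551 transcripts of the members was called in edgeR's test, against 0.00585% of 51293 transcripts in all, and 39 (7.08%) had an unadjusted p under 0.05, against 2.95% of all. Rnd2-201, the coding transcript that held 98.6% of Rnd2 reads, had a log2 change of 0.21 (SE 0.0337, edgeR adjusted p = 0.0574). Acbd4-202, annotated as subject to nonsense-mediated decay, held 13.9 ± 1.80% of the reads of its gene in Grn+/- mice and 10.9 ± 2.08% in Grn+/+ mice (SD, n = 12 each). Its log2 change was 0.47 (SE 0.109, edgeR adjusted p = 1). Ubtf-205, a coding transcript, held 9.49 ± 2.44% of the reads of its gene in Grn+/- mice and 15.4 ± 8.25% in Grn+/+ mice, where the library that stands apart, at 39.0%, is the highest and the next library has 19.3% (log2 change −0.78, SE 0.195, edgeR adjusted p = 1). These splits are Salmon's estimates, and their error is not in the files.

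The human TDP-43 transgene was compared in the same way. In the average over both Grn genotypes, hTDP+ over hTDP-, edgeR called none of the 191 genes, while it called 20 genes, or 0.11%, over the whole table. DESeq2 called none of the 188 members to which it gave an adjusted p, and 61 of 17523 genes in all. An unadjusted p under 0.05 was found for 18 of the 191 genes (9.42%, against 7.86% of all genes), 6 of them higher in hTDP+ mice (3.62% of all genes were) and 12 lower (4.24% of all genes were). By distance from Grn the shares were 10.7%, 0%, 8.62% and 12.3% from the nearest group outward and 8.37% on other chromosomes.

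The member with the smallest p was Itgb3, the integrin beta 3 chain, with 4.94 ± 0.521 CPM in hTDP+ mice and 5.74 ± 0.613 CPM in hTDP- mice (SD, n = 12 each, log2 change −0.22, SE 0.0591, edgeR adjusted p = 0.318). Tanc2, a scaffold protein of excitatory synapses, had 205 ± 14.7 CPM in hTDP+ mice and 222 ± 13.8 CPM in hTDP- mice (log2 change −0.11, SE 0.0361, edgeR adjusted p = 0.463). Top2a, a topoisomerase of dividing cells, had 0.522 ± 0.427 CPM in hTDP+ mice and 0.270 ± 0.0986 CPM in hTDP- mice (log2 change 0.96, SE 0.353, edgeR adjusted p = 0.566). Its highest hTDP+ library, at 1.71 CPM, lay far above the rest. None of these differences passed.

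Taken within each Grn genotype, the transgene again left no member called by edgeR or DESeq2. DESeq2 gave an adjusted p to 189 members in Grn+/- mice and to 188 in Grn+/+ mice. Over all genes it called 9 of 17877 in Grn+/- mice and 27 of 17523 in Grn+/+ mice. In edgeR's test, 5 of the 191 genes had an unadjusted p under 0.05 in Grn+/- mice (2.62%, against 2.38% of all genes, of which 0.0219% were called). In Grn+/+ mice 14 had (7.33%, against 7.83% of all genes, of which 0.0329% were called by edgeR). The hTDP+ and hTDP- libraries of Grn+/+ mice did not overlap for Acly, as for 0.504% of all genes. The interaction gave no call by either tool over the 191 genes. Over all genes edgeR called 0.0%, and DESeq2 called 3 of 18230. Rnd2, Stat5a and Ttc25, a cilium gene, had an unadjusted p under 0.05 there (1.57%, against 2.38% of all genes).

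Mice with both changes, Grn+/-:hTDP+, were last compared with Grn+/+:hTDP- mice. Rnd2 was called, with 69.2 ± 3.52 CPM in Grn+/-:hTDP+ mice and 58.1 ± 2.46 CPM in Grn+/+:hTDP- mice (SD, n = 6 each, log2 change 0.25, SE 0.0462, edgeR adjusted p = 0.0285). Over all genes 0.0768% were called. With age as cohorts Rnd2 was no longer called (log2 change 0.26, edgeR adjusted p = 0.104). DESeq2 called Rnd2, Psme3, Fam171a2 and Cyb561, which are 4 of the 76 members to which it gave an adjusted p, and 86 of 5156 genes in all, or 1.67%. In all, 31 of the 191 genes (16.2%) had an unadjusted p under 0.05, against 9.4% of all genes. The 2 groups did not overlap for Rnd2, Meox1, Eftud2 and Psme3, as for 0.68% of all genes. This comparison shares its libraries with those above, so it adds no separate evidence.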

How the data were processed

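Polyadenylated RNA of frontal cortex from 24 mice was sequenced, and 1 Salmon table per library was analysed. Each title has its own mouse number, so p-values measure the spread between mice. Per the file headers, the deposited columns hold expected counts for each transcript, TPM and transcript lengths, the other unit used here. The submitters' processing notes list Salmon, DESeq2, STAR and SAMtools, with no version. Build and annotation: not given in the sources used here. Of 149444 transcripts, 138032 (92.4%) were matched by identifier to GENCODE M21, and the mouse transcripts without a match held 1.17% to 1.66% of reads. For each gene, these deposited expected counts were added up, rounded and tested with edgeR 4.0.16 (quasi-likelihood, two-sided, TMM scaling, default filter by group, terms for group and sex, all libraries in 1 fit, R 4.3.3). Of 193 genes in the interval, 191 passed the filter; Hspb9 and Cd79b did not. P-values were adjusted (Benjamini-Hochberg) over 18239 genes, with 0.05 as the limit of the adjusted p for a call. CPM values come from these counts and TMM-adjusted totals, and log2 CPM used a prior count of 1. TPM values of a gene are sums of deposited TPM over its transcripts. Log2 changes are the tested genotype over its control.

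Alternatives were DESeq2 1.42.0, relative log expression scaling, no filter, no sex term, a linear age term, age as cohorts (added after seeing the data), the ages 9.44 and 10.07 months alone, length-scaled TPM counts, a window of 2.5 Mb, and each library left out. The fit was tested on simulated data with the same dispersion for all genes and no age or litter differences. That checks the working of the fit and not the results given here. The members, lists and settings were chosen with earlier results of these data known. Genes named are those called, the 12 of smallest p in the average Grn comparison and 3 in each other comparison, the 6 nearest to Grn on each side, the 5 of highest TPM, the 2 of smallest p of each list, and the 5 most and 3 least like Grn; any other gene was picked with its values known. Of the 193 genes, 54 overlap exons of a gene on the opposite strand, and reads of such pairs may be shared.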

Additional observations from a re-analysis of the deposited data

Results flagged for a closer look

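For the named genes and Grn, the highest and the lowest library of each group of 6 were compared with the others. In 13 of 156 groups 1 library lay far from the rest, and chance flags about 1 in 20. Among Grn+/- mice, Grn had 13.8 CPM in replicate 3 of the hTDP- group, Rnd2 75.9 CPM and Meioc 0.242 CPM in replicate 6 of the hTDP+ group, Top2a 1.71 CPM in replicate 4 of the hTDP+ group, and Fzd2 9.09 CPM in replicate 2 of the hTDP- group. Among Grn+/+ mice, replicate 2 of the hTDP+ group, the library that stands apart, had 148 CPM of Fam171a2, 4.10 CPM of Erbb2 and 70.8 CPM of Tmub2. In the Grn+/+:hTDP- group, Psme3 had 117 CPM in replicate 5, Ttc25 1.56 CPM and Atxn7l3 314 CPM in replicate 3, Meioc 0.918 CPM in replicate 4, and Eftud2 98.5 CPM in replicate 1.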

How the results depend on the processing

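The call of Rnd2 in the average Grn comparison held with each of the 24 libraries left out (log2 change 0.185 to 0.217, edgeR adjusted p = 0.00146 to 0.0476) and in 6 of 8 other settings. It was lost among libraries of 9.44 or 10.07 months (log2 change 0.249, adjusted p = 0.616), a setting that keeps 1 Grn+/-:hTDP- library, assumed to vary like the others, and with sex and age as cohorts (log2 change 0.238, adjusted p = 0.0649), a setting chosen after seeing the data. The number of members called in that comparison, 1, became 4 with DESeq2, 0 at those ages and 0 with age as cohorts; it ran from 1 to 3 with single libraries left out, the 3 without replicate 2 of Grn+/+:hTDP+. In hTDP- mice the count, 1, became 0 with a linear age term, 0 with age as cohorts and 0 at those ages, and ran from 0 to 2 with single libraries left out; the call of Rnd2 was lost in 18 of 24 such fits, with adjusted p = 0.0118 to 0.199. For Grn+/-:hTDP+ against Grn+/+:hTDP- the count, 1, became 4 with DESeq2, 0 at those ages, 0 with age as cohorts and 0 with length-scaled TPM counts, and ran from 0 to 1 with single libraries left out. The cause of these changes was not tested. Over all genes DESeq2 called 9 and edgeR 4 in the average Grn comparison, and 86 and 14 for Grn+/-:hTDP+ against Grn+/+:hTDP-. The other comparisons kept 0 members called in each setting run. Among named genes in the average Grn comparison, length-scaled TPM counts reversed Acbd4 (−0.068) and Ttc25 (−0.332), and single libraries left out moved Itgb3 from −0.043 to 0.005 and Srcin1 from −0.047 to 0.004 on the log2 scale. No paired analysis was possible because each library is a separate mouse, the replicate numbers follow accession order and the labels do not tie mice to litters.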
